A study of Homo sapiens with 4 samples.

Results

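Actin cytoskeleton genes, listed apart from LIMA1 and its LIM-domain relatives, were examined in A549 cells, an established line from a human lung cancer. The members were 54 listed genes matched to the files by their symbol. Paxillin (PXN), which itself carries LIM domains, is among them. Measured genes were those averaging 30 or more normalized fragment counts across the libraries, a level that 51 of the 54 passed, among 12742 measured of 42113 gene models in all. RNA sequencing was done on cells stably infected with a lentivirus that carried a short hairpin RNA (shRNA), either against LIMA1 or a negative control. Each line was either given nutlin-3a at 10 µM or left without it, and RNA was taken after 24 h. The 4 groups were therefore LIMA1 shRNA with nutlin-3a, LIMA1 shRNA untreated, control shRNA with nutlin-3a and control shRNA untreated, with 1 library each. All 4 share the infected, shRNA-carrying A549 background, and were grown in RPMI medium with 10% fetal calf serum. The title of the series asks how LIMA1 knockdown affects the genes that p53 activates. With 1 library per group there is no replicate error and no test, so every difference below compares libraries, not conditions. An effect of the hairpin and a lasting difference between the infected lines cannot be told apart.

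Actin is the protein of the thin filaments that give a cell its shape, its stress fibres and its contractile ring. Monomers are handed to growing ends by profilin, filaments are started by the Arp2/3 complex (branches) or by formins (unbranched filaments), and they are cut by cofilin and gelsolin, blocked by capping protein, bundled by actinins and filamins, coated by tropomyosins and pulled by myosin II. LIMA1, also called EPLIN, bundles filaments through its LIM domain region, and is itself outside the list. Nutlin-3a blocks the binding of MDM2 to p53 and so activates p53, which stops the cell cycle. Many actin genes are transcribed by serum response factor with its MRTF coactivators, which bind a promoter element named the CArG box.

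The promoters of 46 of the 54 members were in RefSeq (build GRCh38.p14), with 78 start sites among them, each read from 250 bases before to 50 after the start. ACTB and VIL1 were not in that table. A CArG box was found on either strand in 6 of the 78 promoters (7.69%), those of FLNA, ACTG1, CNN2, ACTN1, TPM4 and ROCK2. It was found in 454 of all 35116 promoters (1.29%) and in 1.05% of the promoters of measured genes. Several members are textbook targets of this factor, so the share describes the list. The promoters below are shown because they carry the element in a crosslinker (FLNA), an actin (ACTG1), a calponin (CNN2) and a tropomyosin (TPM4), with the CArG box in capitals. They are FLNA at chrX:154374585-154374884 (minus strand), ACTG1 at chr17:81512750-81513049 (minus strand), CNN2 at chr19:1026358-1026657 (plus strand) and TPM4 at chr19:16067288-16067587 (plus strand), 1 of 3 listed starts of TPM4.
FLNA: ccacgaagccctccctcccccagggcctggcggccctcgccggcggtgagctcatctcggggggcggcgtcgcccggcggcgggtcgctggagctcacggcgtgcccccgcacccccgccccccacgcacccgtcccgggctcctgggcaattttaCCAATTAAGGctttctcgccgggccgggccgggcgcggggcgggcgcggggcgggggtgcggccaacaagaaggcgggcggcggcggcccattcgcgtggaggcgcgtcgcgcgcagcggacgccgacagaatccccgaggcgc
ACTG1: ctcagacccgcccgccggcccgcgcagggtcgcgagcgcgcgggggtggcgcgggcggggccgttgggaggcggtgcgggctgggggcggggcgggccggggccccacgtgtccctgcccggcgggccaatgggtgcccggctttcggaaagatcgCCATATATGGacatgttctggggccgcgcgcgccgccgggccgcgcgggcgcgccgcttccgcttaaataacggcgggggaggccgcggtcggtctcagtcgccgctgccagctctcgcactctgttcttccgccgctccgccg
CNN2: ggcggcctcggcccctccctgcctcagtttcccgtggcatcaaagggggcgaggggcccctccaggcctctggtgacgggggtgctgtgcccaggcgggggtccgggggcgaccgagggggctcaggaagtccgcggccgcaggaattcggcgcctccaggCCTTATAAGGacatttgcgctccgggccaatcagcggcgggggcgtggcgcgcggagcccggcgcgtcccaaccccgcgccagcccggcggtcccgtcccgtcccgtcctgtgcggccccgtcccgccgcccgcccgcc
TPM4: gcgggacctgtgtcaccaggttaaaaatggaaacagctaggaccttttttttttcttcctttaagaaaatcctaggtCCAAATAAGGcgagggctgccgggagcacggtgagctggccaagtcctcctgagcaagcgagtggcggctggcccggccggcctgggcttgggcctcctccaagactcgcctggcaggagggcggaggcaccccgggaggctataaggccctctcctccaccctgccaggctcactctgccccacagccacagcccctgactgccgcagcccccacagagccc
The box began 94 bases before the start in FLNA and in ACTG1, 89 before it in CNN2 and 173 before it in TPM4. In FLNA its first letters also spell CCAAT, the next motif searched. The promoter of DIAPH3, the member with the largest difference in the nutlin-3a comparisons, is shown with its CCAAT matches in capitals (the second match is on the other strand), at chr13:60163879-60164178 (minus strand).
DIAPH3: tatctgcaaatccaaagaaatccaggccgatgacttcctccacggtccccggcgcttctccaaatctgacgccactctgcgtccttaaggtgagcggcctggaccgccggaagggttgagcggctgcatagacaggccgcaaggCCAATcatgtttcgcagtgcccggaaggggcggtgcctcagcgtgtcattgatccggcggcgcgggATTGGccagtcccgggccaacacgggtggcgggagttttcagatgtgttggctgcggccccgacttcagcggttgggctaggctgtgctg
The matches began 106 and 40 bases before this start, and the other listed start of DIAPH3 had none. CCAAT on either strand was in 34.6% of members' promoters and in 34.6% of all promoters, so the match sets DIAPH3 apart from neither. TTTGAA was in 8.97% of members' promoters, 10.5% of those of measured genes and 15.2% of all. TTCCCGC was in 6.41% of members' promoters, 9.63% of those of measured genes and 6.55% of all. These are letter matches, not tested sites.

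The libraries held 15.2 to 16.7 M fragments, and the 54 listed members summed to between 2.33% and 2.55% of all normalized counts in each. LIMA1, the targeted gene, had 133 and 68.3 normalized counts in LIMA1 shRNA cells with nutlin-3a and untreated, against 866 and 416 in control shRNA cells with nutlin-3a and untreated. CDKN1A, a p53 target, had 48106 and 34078 normalized counts in the nutlin-3a libraries of the LIMA1 shRNA and control shRNA lines, against 1178 and 1066 in their untreated libraries. All 8 markers listed for A549 as a lung epithelial line were measured. The T cell gene CD3E was at 0 in every library, the leukocyte gene PTPRC reached 0.943 normalized counts at most and the muscle genes DES, MYH11 and CNN1 reached 3.01 at most. Other cell type lists summed to 613 to 897 normalized counts (immune, from CD68), 3.22 to 12.9 (endothelial), 20.4 to 82.9 (fibroblast) and 88.1 to 2273 (muscle, from ACTA2). In such bulk RNA, fewer cells that express a gene and less of its RNA per cell cannot be told apart.

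Per kilobase of transcript, the scale on which genes can be set beside each other, untreated control shRNA cells held most of ACTB (29576 normalized counts per kb) and ACTG1 (26735), the cytoplasmic actins. The monomer-binding PFN1 followed with 14510 normalized counts per kb and the severing protein CFL1 with 12390. The myosin light chain MYL6 had 9733 and the transgelin TAGLN2 had 6649 on the same scale. At the other end were TAGLN (75.3 normalized counts per kb), a smooth-muscle transgelin, and VIL1 (64.2), villin of epithelial microvilli. Lengths are those of the longest coding transcript in GENCODE 29, so the order of close neighbours depends on which isoform is used. The members left out as too low were MYL9, FLNC and LCP1, with at most 17.9, 16.9 and 20.4 normalized counts in any library. The measured member with the lowest mean was TAGLN, with 109, 137, 115 and 163 normalized counts in the LIMA1 shRNA nutlin-3a, LIMA1 shRNA untreated, control shRNA nutlin-3a and control shRNA untreated libraries.

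**Figure D1:**
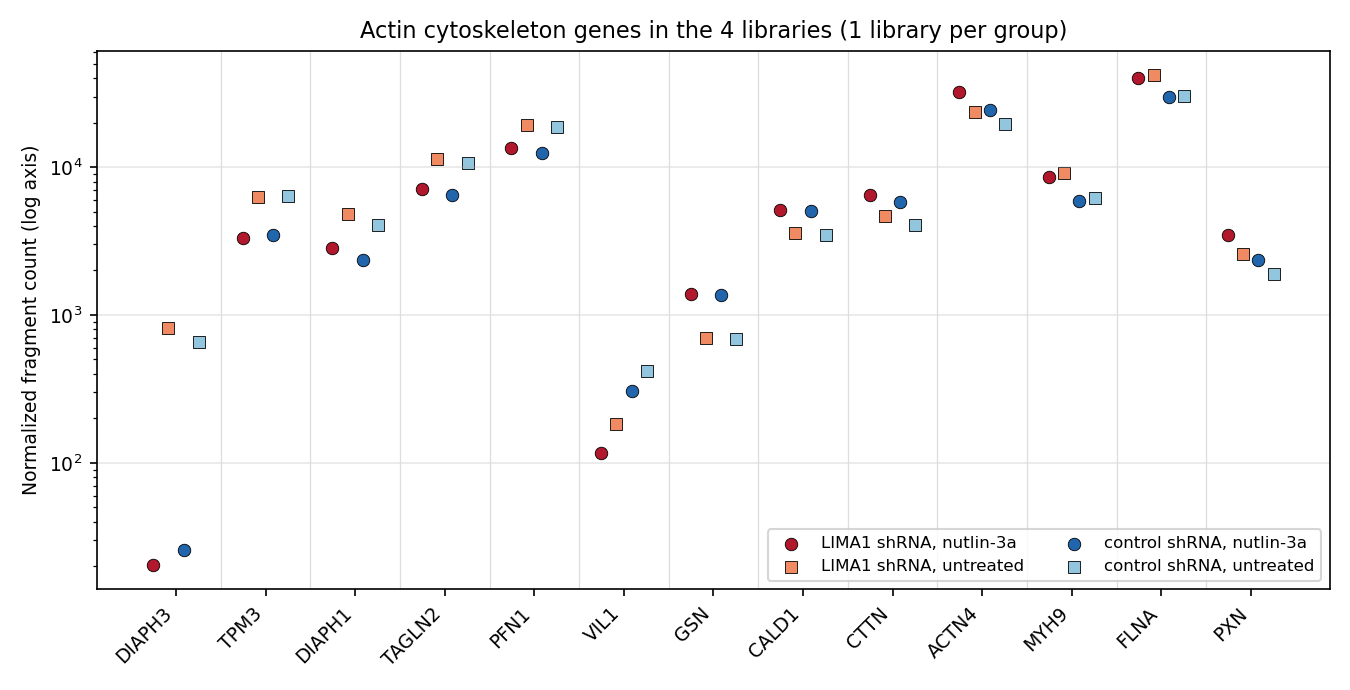
Normalized fragment counts (log axis) of 13 actin cytoskeleton genes in the 4 libraries, 1 point per library; circles are nutlin-3a libraries, squares untreated ones. DIAPH3 is at 20.4 and 25.8 with nutlin-3a, against 817 and 655 untreated, GSN lies higher with nutlin-3a in both lines, and VIL1 lies lower in the LIMA1 shRNA libraries.

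In the nutlin-3a comparisons the actin genes differed less than the genome at large, apart from a formin with a very large difference. DIAPH3, TPM3, DIAPH1 and TAGLN2 were lower with nutlin-3a in both lines, and gelsolin (GSN) was higher in both. Differences are given as nutlin-3a minus untreated on the scale of log2(normalized count + 1), and a difference of at least 1 (a 2-fold change) or 0.58 (a 1.5-fold change) in size was counted. In LIMA1 shRNA cells, 0 of 51 members were higher by at least 1, where 7.29% of all measured genes were, and 1 of 51 was lower by that much, where 6.08% were. In control shRNA cells, 0 were higher by at least 1 (all genes 5.54%) and 1 was lower (all genes 5.64%). At the smaller size, 1 member was higher and 5 were lower in LIMA1 shRNA cells, where 15.6% and 14.6% of all genes were. The counts were also 1 higher and 5 lower in control shRNA cells, where 13.3% and 12.8% of all genes were. The members' share past either size was below the background in every direction. The median size of a member's difference was 0.23 in both lines, against 0.35 over all genes in LIMA1 shRNA cells and 0.32 in control shRNA cells. Here and below, all measured genes were not matched to the members for level. Their median log2(normalized count + 1) was 8.91 to 9.0 per library, and most members lay above it. Genes with fewer counts carry more counting error, and the part of level in these comparisons was not tested.

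More members lay below 0 than above it, 36 against 15 in LIMA1 shRNA cells and 37 against 14 in control shRNA cells, with medians of -0.09 and -0.08 beside -0.02 over all genes in both. That direction belongs to the deposited scaling: under upper-quartile scaling the members' medians were 0.06 and 0.04. That scaling moves the median of all genes by 0.15 in LIMA1 shRNA cells and 0.12 in control shRNA cells, so members near 0 have no firm sign, while every member past 0.2 in size kept its sign under each scaling tried.

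DIAPH3 and DIAPH1 are formins, which start and lengthen unbranched filaments. DIAPH3 had 20.4 normalized counts with nutlin-3a and 817 untreated in LIMA1 shRNA cells, and 25.8 with nutlin-3a and 655 untreated in control shRNA cells. The ratio of nutlin-3a to untreated was 0.0249 (95% exact interval 0.0149 to 0.0392) in LIMA1 shRNA cells and 0.0394 (0.0256 to 0.0582) in control shRNA cells. These intervals, here and below, cover counting error only, since the reads carry no molecular identifiers and there are no replicate libraries. Both nutlin-3a libraries lay far below both untreated ones, at log2 differences of -5.26 and -4.61. DIAPH1 had 2842 normalized counts with nutlin-3a and 4785 untreated in LIMA1 shRNA cells, and 2358 with nutlin-3a and 4045 untreated in control shRNA cells. Its ratios were 0.594 (0.566 to 0.623) and 0.583 (0.554 to 0.613) in the LIMA1 shRNA and control shRNA lines. The formins thus differed in the same direction by very different amounts, and DIAPH3's share of their summed fragments was 0.712% with nutlin-3a and 14.6% untreated in LIMA1 shRNA cells. In control shRNA cells that share was 1.08% with nutlin-3a and 13.9% untreated. An antisense gene, DIAPH3-AS1, overlaps exons of DIAPH3 and was at 0 in all 4 libraries.

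The other nucleation and elongation factors differed less. CTTN, cortactin, which steadies Arp2/3 branches, was higher with nutlin-3a at 6485 normalized counts against 4649 untreated in LIMA1 shRNA cells, and 5795 against 4038 in control shRNA cells. VASP, which lengthens filaments at adhesions and leading edges, was lower by log2 differences of -0.41 and -0.42 in the LIMA1 shRNA and control shRNA lines. Its relative ENAH had differences of -0.19 and -0.08, and EVL, the third of that family, had 0.29 and 0.00. WASL, which switches on Arp2/3, had -0.19 and -0.07. EVL rests on the fewest fragments here, 267 normalized counts with nutlin-3a and 219 untreated in LIMA1 shRNA cells, and 321 in both control shRNA libraries.

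Of the actins and the profilins that bind their monomers, all 4 lay below 0 in both lines under the deposited scaling; under upper-quartile scaling ACTB and ACTG1 do not keep that sign in both. PFN1 had 13421 normalized counts with nutlin-3a and 19229 untreated in LIMA1 shRNA cells, and 12445 with nutlin-3a and 18732 untreated in control shRNA cells. Its log2 differences of -0.52 and -0.59 lay on either side of the 0.58 size. PFN2 had differences of -0.48 and -0.36. The actins moved little beside them, with ACTB at -0.09 and -0.14 and ACTG1 at -0.15 and -0.04 in the LIMA1 shRNA and control shRNA lines. PFN1 shares exon sequence with ENO3 on the opposite strand, which had 298 and 150 normalized counts in the nutlin-3a libraries and 457 and 260 in the untreated ones of the LIMA1 shRNA and control shRNA lines. No source used here gives the strand of counting, so reads of such neighbours cannot be told apart.

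The Arp2/3 complex, the branching nucleator, split by subunit in the same way in both lines. ARPC2 (0.31 and 0.27) and ARPC1B (0.23 and 0.23) were higher with nutlin-3a in the LIMA1 shRNA and control shRNA lines, while ACTR3 (-0.34 and -0.31) and ACTR2 (-0.27 and -0.25), the actin-related subunits, were lower. ARPC3, ARPC4, ARPC5 and ARPC1A lay between -0.19 and 0.13. The alternative ARPC1 subunits give a measure that no scaling can change: ARPC1A made up 35.4% of ARPC1A plus ARPC1B with nutlin-3a (95% exact interval 34.0% to 36.7%) and 42.3% untreated (40.9% to 43.7%) in LIMA1 shRNA cells. In control shRNA cells it made up 36.2% with nutlin-3a (34.9% to 37.6%) and 42.0% untreated (40.6% to 43.4%). The share was lower in both nutlin-3a libraries than in both untreated ones. ARPC1B is among the members whose values are not whole fragments, so part of its reads may be shared with another gene model.

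Among severing and capping proteins, GSN, gelsolin, which cuts filaments and caps their ends, was the member highest above its untreated level. It had 1378 normalized counts with nutlin-3a and 704 untreated in LIMA1 shRNA cells, and 1357 with nutlin-3a and 686 untreated in control shRNA cells. The ratios were 1.96 (1.79 to 2.15) and 1.98 (1.81 to 2.17), and the nutlin-3a libraries of both lines lay above both untreated ones. Its antisense neighbour GSN-AS1 had at most 2.83 normalized counts. CFL1, cofilin, which severs aged filaments, was lower, with differences of -0.38 and -0.43 in the LIMA1 shRNA and control shRNA lines. The capping protein subunits CAPZA1 and CAPZB lay between -0.09 and -0.02.

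The crosslinkers moved in both directions. ACTN1, an alpha-actinin of stress fibres, had 9182 normalized counts with nutlin-3a and 6551 untreated in LIMA1 shRNA cells, and 7314 with nutlin-3a and 5358 untreated in control shRNA cells. ACTN4, its relative, had differences of 0.45 and 0.32 in the LIMA1 shRNA and control shRNA lines. Filamin A (FLNA), fascin (FSCN1) and plastin 3 (PLS3), which form webs or tight bundles, lay between -0.06 and 0.08. VIL1 was lower, with differences of -0.65 and -0.45. USP37, which overlaps VIL1 on the opposite strand, was also lower with nutlin-3a, with differences of -1.62 and -1.28; its part in the VIL1 values was not tested.

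Tropomyosins, which run along filaments and steer which proteins bind them, differed by gene. TPM3 had 3306 normalized counts with nutlin-3a and 6328 untreated in LIMA1 shRNA cells, and 3475 with nutlin-3a and 6397 untreated in control shRNA cells. Its ratios were 0.522 (0.5 to 0.545) and 0.543 (0.521 to 0.566), both nutlin-3a libraries lying below both untreated ones. TPM2 was higher at differences of 0.29 and 0.30, TPM4 lower at -0.20 and -0.23, and TPM1 had 0.14 and -0.03. As shares of all tropomyosin fragments, which no scaling changes, TPM3 made up 15.7% with nutlin-3a and 25.8% untreated in LIMA1 shRNA cells, and 16.3% with nutlin-3a and 25.8% untreated in control shRNA cells. TPM2 made up 20.1% with nutlin-3a and 14.1% untreated in LIMA1 shRNA cells, and 26.1% with nutlin-3a and 18.2% untreated in control shRNA cells. TPM3 thus gave up share and TPM2 gained it in both lines. GENCODE names 8 pseudogenes of TPM3, 1 of which is in the files at up to 223 normalized counts.

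CALD1, caldesmon, which restrains myosin on the filament, was higher, with 5097 normalized counts with nutlin-3a and 3574 untreated in LIMA1 shRNA cells, and 5018 with nutlin-3a and 3494 untreated in control shRNA cells. TAGLN2 was lower, with 7164 normalized counts with nutlin-3a and 11352 untreated in LIMA1 shRNA cells, and 6510 with nutlin-3a and 10665 untreated in control shRNA cells. Both genes had their nutlin-3a libraries all above (CALD1) or all below (TAGLN2) the untreated ones. TAGLN was lower by differences of -0.32 and -0.50, though in LIMA1 shRNA cells the ratio of 0.801 had an interval of 0.614 to 1.04, which holds 1. The calponins CNN2 and CNN3, which steady filaments, lay between -0.21 and -0.08.

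The members of the motor and its kinases moved less than the list as a whole. The median size of their differences was 0.1 in LIMA1 shRNA cells and 0.15 in control shRNA cells. Over all members it was 0.23 in both. Myosin II genes and kinases outside the members, such as MYH14 and MYLK, are not counted here. The myosin II heavy chain MYH9 had differences of -0.09 and -0.06 and its relative MYH10 had -0.24 and -0.41 in the LIMA1 shRNA and control shRNA lines. ROCK1 and ROCK2, kinases that switch the motor on, lay between -0.23 and -0.09. The light chain MYL6 was higher at 0.26 and 0.13. MYL12A, a regulatory light chain, had -0.10 in LIMA1 shRNA cells and 0.15 in control shRNA cells, and its neighbour MYL12B lay within 0.02 of 0 in both.

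Among proteins that tie filaments to adhesions and the membrane, paxillin (PXN) was higher with nutlin-3a, at differences of 0.41 and 0.31 in the LIMA1 shRNA and control shRNA lines, and talin (TLN1) lay at -0.05 and -0.08. Vinculin (VCL) had -0.14 and -0.25. Ezrin, moesin and radixin, which link filaments to the membrane, parted: EZR had -0.45 and -0.22, MSN -0.27 and -0.26, and RDX 0.14 and 0.30. RDX made up 28.7% of the fragments of this family with nutlin-3a and 22.5% untreated in LIMA1 shRNA cells, and 30.4% with nutlin-3a and 23.1% untreated in control shRNA cells.

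**Figure D2:**
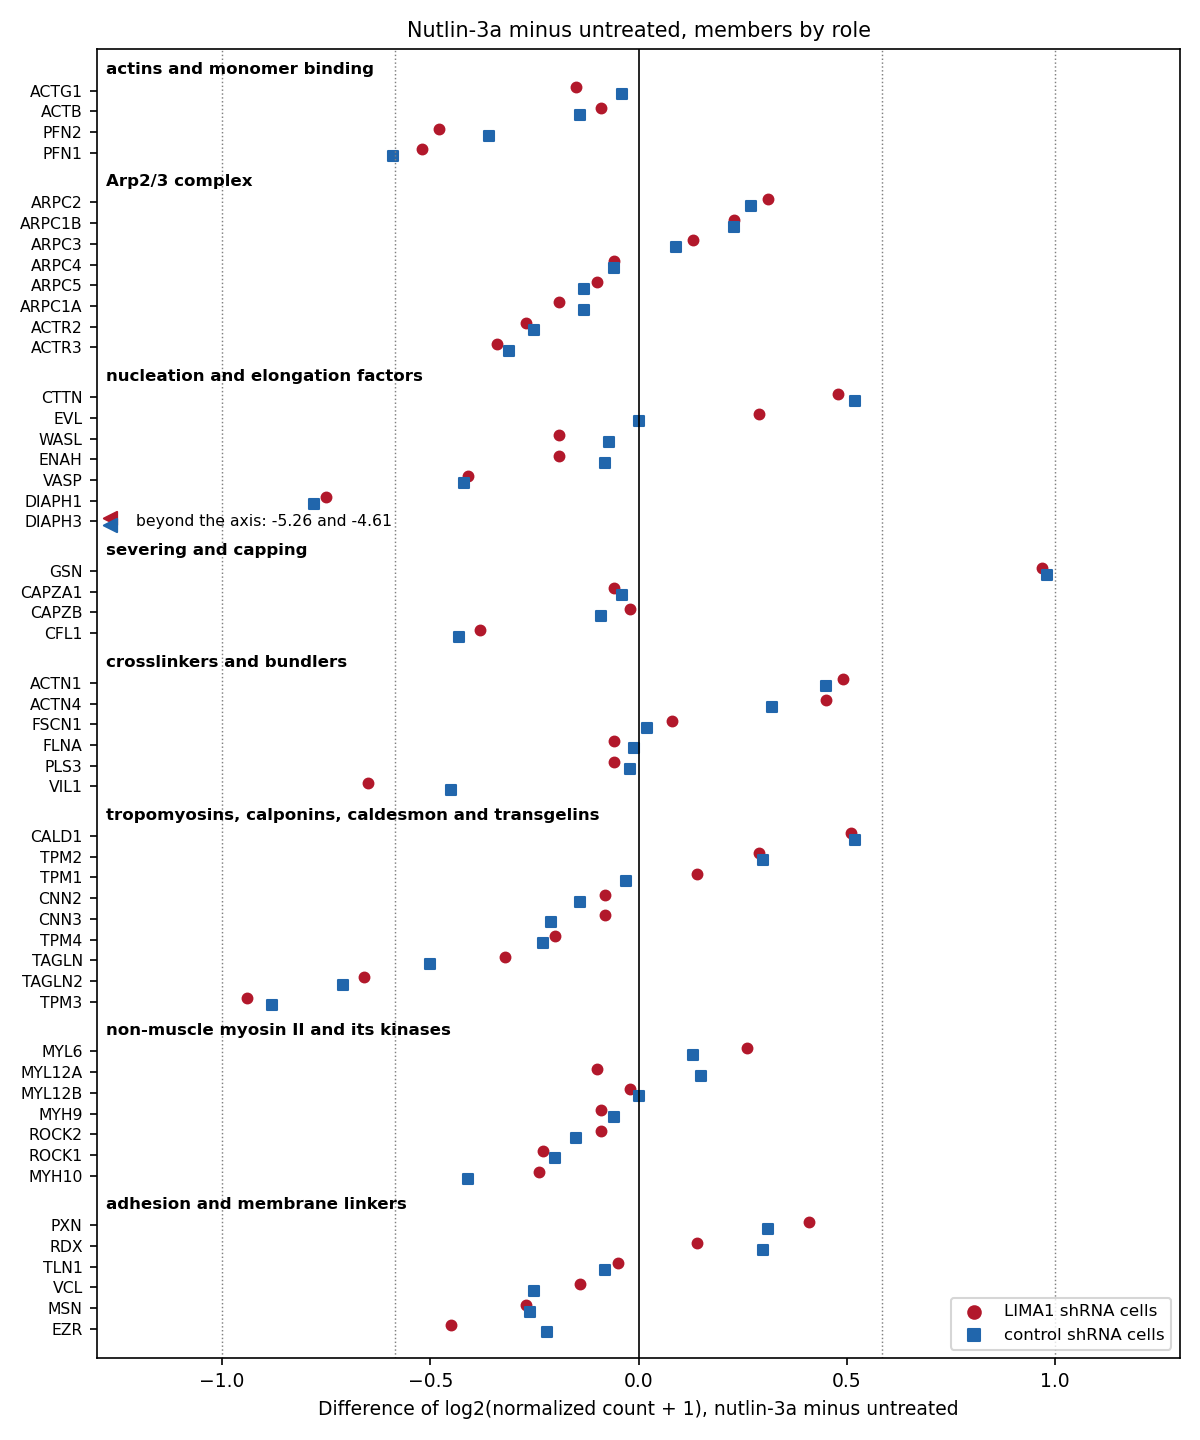
Differences of log2(normalized count + 1), nutlin-3a minus untreated, for the 51 measured members grouped by role; red circles are LIMA1 shRNA cells and blue squares control shRNA cells, 1 library per group, and dotted lines mark differences of 0.58 and 1 in size. The points of both lines lie close together in most rows, GSN is at 0.97 and 0.98, and DIAPH3 lies beyond the axis at -5.26 and -4.61.

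The lines gave much the same list of differences, measured in separate libraries. Of the 51 members, 48 (94.1%) had the same sign in LIMA1 shRNA and control shRNA cells, against 86.0% of all measured genes. Pearson's r between the responses across the 51 genes was 0.99 and Spearman's rank correlation 0.94; without DIAPH3 they were 0.96 and 0.93. Genes are not independent replicates, so these values describe the libraries. The responses differed by less than 0.2 in 46 of 51 members and in 8195 of all 12742 measured genes.

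The LIMA1 shRNA comparisons showed a low member and a group of modestly high ones. VIL1 was lower in LIMA1 shRNA cells with either treatment, and MYH9, PXN, FLNA and VCL were among the members highest above control. Differences are LIMA1 shRNA minus control shRNA on the same log2 scale. In untreated cells, 0 of 51 members were higher by at least 1 (all genes 1.04%) and 1 was lower (all genes 2.05%). At 0.58 in untreated cells, 0 were higher (all genes 3.47%) and 1 was lower (all genes 6.04%). With nutlin-3a, 0 were higher by at least 1 (all genes 1.26%) and 1 was lower (all genes 1.94%). At 0.58 with nutlin-3a, 0 were higher (all genes 4.37%) and 1 was lower (all genes 5.33%). The lower member was VIL1 each time, and 1 of 51 is 1.96%, near or under the background.

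VIL1 had 116 normalized counts in LIMA1 shRNA cells and 308 in control shRNA cells with nutlin-3a, and 182 in LIMA1 shRNA cells and 419 in control shRNA cells untreated. The ratio of LIMA1 shRNA to control shRNA was 0.376 (95% exact interval 0.299 to 0.470) with nutlin-3a and 0.434 (0.364 to 0.517) untreated. Both LIMA1 shRNA libraries lay below both control shRNA ones, at log2 differences of -1.40 and -1.20. Its overlapping neighbour USP37 had differences of -0.10 with nutlin-3a and 0.24 untreated. Of the 8 markers listed for the line, EPCAM, KRT18, ALDH1A1 and AKR1B10 were also lower in LIMA1 shRNA cells with both treatments. EPCAM had 31.1 normalized counts against 111 in control shRNA cells with nutlin-3a, and 82.1 against 229 untreated. KRT18 had 58266 against 70306 with nutlin-3a and 55419 against 56902 untreated. ALDH1A1 had 225725 against 287908 and 193575 against 213494, and AKR1B10 had 73999 against 80986 and 48907 against 56744. AKR1C1 was lower with nutlin-3a (11647 against 12492) and higher untreated (11950 against 10506). The cadherin CDH1 had 4154 normalized counts in LIMA1 shRNA cells and 3931 in control shRNA cells with nutlin-3a, and 2464 in LIMA1 shRNA cells and 2603 in control shRNA cells untreated. The keratin KRT8 had 82811 normalized counts in LIMA1 shRNA cells and 79394 in control shRNA cells with nutlin-3a, and 73787 in LIMA1 shRNA cells and 67927 in control shRNA cells untreated. KRT7, likewise, was above control at 25816 against 22455 with nutlin-3a and 22892 against 20084 untreated, so the markers did not move as a group. Whether VIL1 and EPCAM differ for a shared reason was not tested.

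At a smaller size, 10 of the 51 members (MYH9, PXN, FLNA, VCL, TLN1, ACTN4, ENAH, ACTN1, DIAPH1 and TPM4) were higher by at least 0.2 with both treatments, where 12% of all genes were. Another 5 (VIL1, EVL, TPM2, TPM1 and ARPC5) were lower by at least 0.2 with both, where 12% of all genes were. The medians over members were 0.07 with nutlin-3a and 0.09 untreated, beside 0.03 and 0.02 over all genes, and they depended on the scaling. They were 0.03 with nutlin-3a and 0.02 untreated under upper-quartile scaling, and 0.02 and 0.04 under equal-total scaling. Above 0 lay 32 of 51 members with nutlin-3a and 34 untreated, beside 6959 and 6930 of all 12742 measured genes.

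MYH9, the main non-muscle myosin II heavy chain, had 8533 normalized counts in LIMA1 shRNA cells and 5898 in control shRNA cells with nutlin-3a, and 9099 in LIMA1 shRNA cells and 6163 in control shRNA cells untreated. The ratios were 1.45 (1.4 to 1.5) with nutlin-3a and 1.48 (1.43 to 1.52) untreated, and both LIMA1 shRNA libraries lay above both control ones. MYH10, the other heavy chain among the members, had differences of -0.11 with nutlin-3a and -0.28 untreated. With nutlin-3a, MYH9 made up 89.0% of MYH9 plus MYH10 fragments in LIMA1 shRNA cells and 83.8% in control shRNA cells. The intervals were 88.3% to 89.6% and 83.0% to 84.7%. Untreated, MYH9 made up 88.0% in LIMA1 shRNA cells and 80.3% in control shRNA cells. These shares leave out MYH14, another myosin II heavy chain, which is outside the members. The light chains did not follow MYH9: MYL12B had -0.19 with nutlin-3a and -0.17 untreated, MYL12A -0.30 and -0.05, and MYL6 0.05 and -0.08. ROCK1 and ROCK2 lay between 0.08 and 0.14.

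FLNA, the long filament crosslinker, had 40101 normalized counts in LIMA1 shRNA cells and 29930 in control shRNA cells with nutlin-3a, and 41904 in LIMA1 shRNA cells and 30201 in control shRNA cells untreated. The ratios were 1.34 (1.32 to 1.36) with nutlin-3a and 1.39 (1.37 to 1.41) untreated. ACTN4 had 0.40 and 0.28 and ACTN1 0.33 and 0.29 with nutlin-3a and untreated. The bundlers FSCN1 and PLS3 lay between -0.06 and 0.00. Of the 5 other members with a CArG box beside FLNA, TPM4 (0.27 with nutlin-3a and 0.23 untreated) and CNN2 (0.24 and 0.17) lay above 0 like ACTN1, ROCK2 was at 0.14 and 0.09, and ACTG1 lay below it at -0.18 and -0.07. Genes with the box thus lay on both sides of 0.

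The adhesion and membrane linkers all lay above 0 with both treatments, 6 of 6, with medians of 0.28 with nutlin-3a and 0.29 untreated; with nutlin-3a, RDX (0.02) and EZR (0.04) lie below 0 under upper-quartile and equal-total scaling. PXN had 3463 normalized counts in LIMA1 shRNA cells and 2341 in control shRNA cells with nutlin-3a, and 2599 in LIMA1 shRNA cells and 1885 in control shRNA cells untreated. VCL had differences of 0.43 and 0.32 and TLN1 of 0.37 and 0.33 with nutlin-3a and untreated, and MSN of 0.20 and 0.21. EZR had 0.04 with nutlin-3a and 0.27 untreated. PXN and VCL are among the genes whose values are not whole fragments, and PXN overlaps an antisense gene, PXN-AS1, which had at most 27.4 normalized counts.

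The tropomyosins parted again, along another axis than with nutlin-3a. TPM4 made up 50.4% of tropomyosin fragments in LIMA1 shRNA cells (49.7% to 51.1%) and 41.2% in control shRNA cells (40.5% to 41.8%) with nutlin-3a. Untreated, it made up 49.4% in LIMA1 shRNA cells and 41.6% in control shRNA cells. TPM2, at differences of -0.40 and -0.38, and TPM1, at -0.27 and -0.44, were lower in LIMA1 shRNA cells with nutlin-3a and untreated. TPM3 lay at -0.07 and -0.02. TPM1 values are not whole fragments, so part of them may be shared with another gene model.

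**Figure D3:**
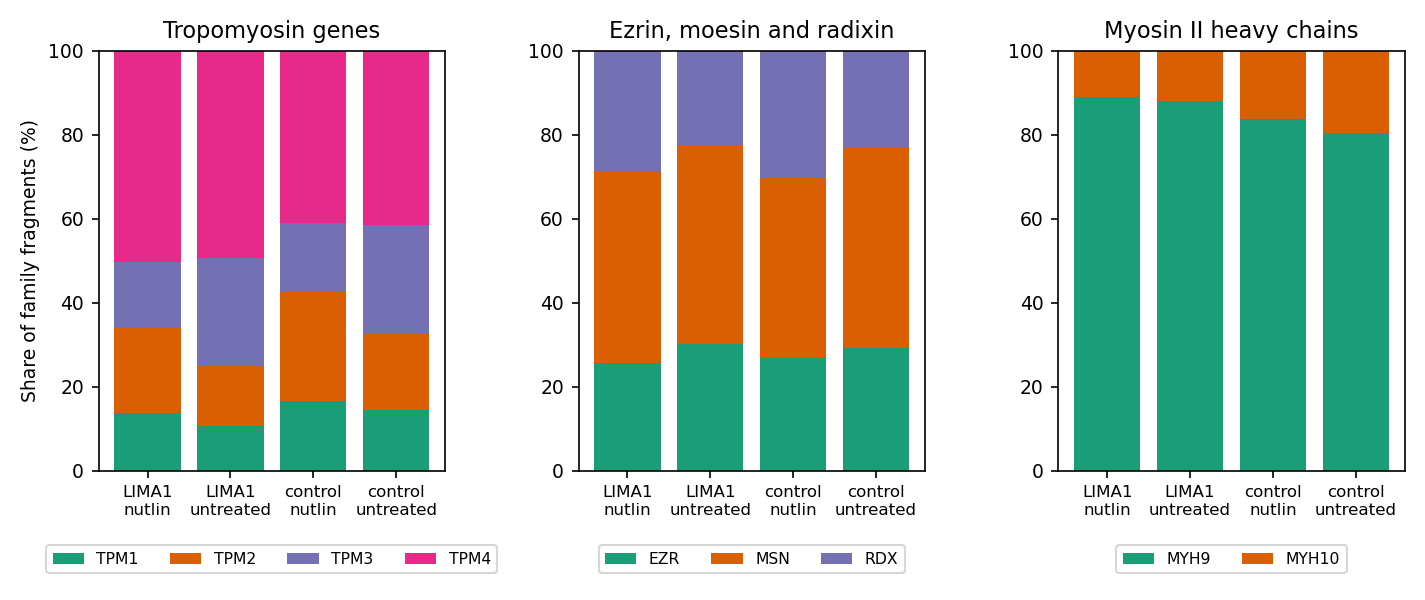
Shares of fragments within gene families (percent, from the deposited normalized counts) in the 4 libraries. Shown are the tropomyosins, ezrin with moesin and radixin, and the myosin II heavy chains MYH9 and MYH10. TPM3 takes 15.7% and 16.3% with nutlin-3a against 25.8% and 25.8% untreated, while TPM4 takes 50.4% and 49.4% in LIMA1 shRNA cells against 41.2% and 41.6% in control shRNA cells.

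The remaining groups held differences on both sides of 0, down to EVL at -0.55 untreated. The actins had ACTB at 0.09 with nutlin-3a and 0.04 untreated, and ACTB made up 51.5% of both actins' fragments in LIMA1 shRNA cells and 46.8% in control shRNA cells with nutlin-3a, and 50.5% and 48.5% untreated. Because GENCODE names 10 pseudogenes of ACTB and 20 of ACTG1, near-identical copies could take or lend reads. PFN1, PFN2, CFL1, GSN, CAPZA1 and CAPZB lay between -0.10 and 0.17. In the Arp2/3 complex, ARPC5 was lowest at -0.25 with nutlin-3a and -0.27 untreated, and ACTR2 highest at 0.18 and 0.20. Among elongation factors ENAH (0.28 and 0.38) and DIAPH1 (0.27 and 0.24) lay highest, and EVL was lower at -0.26 and -0.55, with ratios of 0.833 (0.703 to 0.985) and 0.680 (0.572 to 0.808). DIAPH3 had 0.32 untreated and -0.33 with nutlin-3a, and the nutlin-3a value rests on 20.4 and 25.8 normalized counts, with a ratio of 0.789 (0.413 to 1.48).

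**Figure D4:**
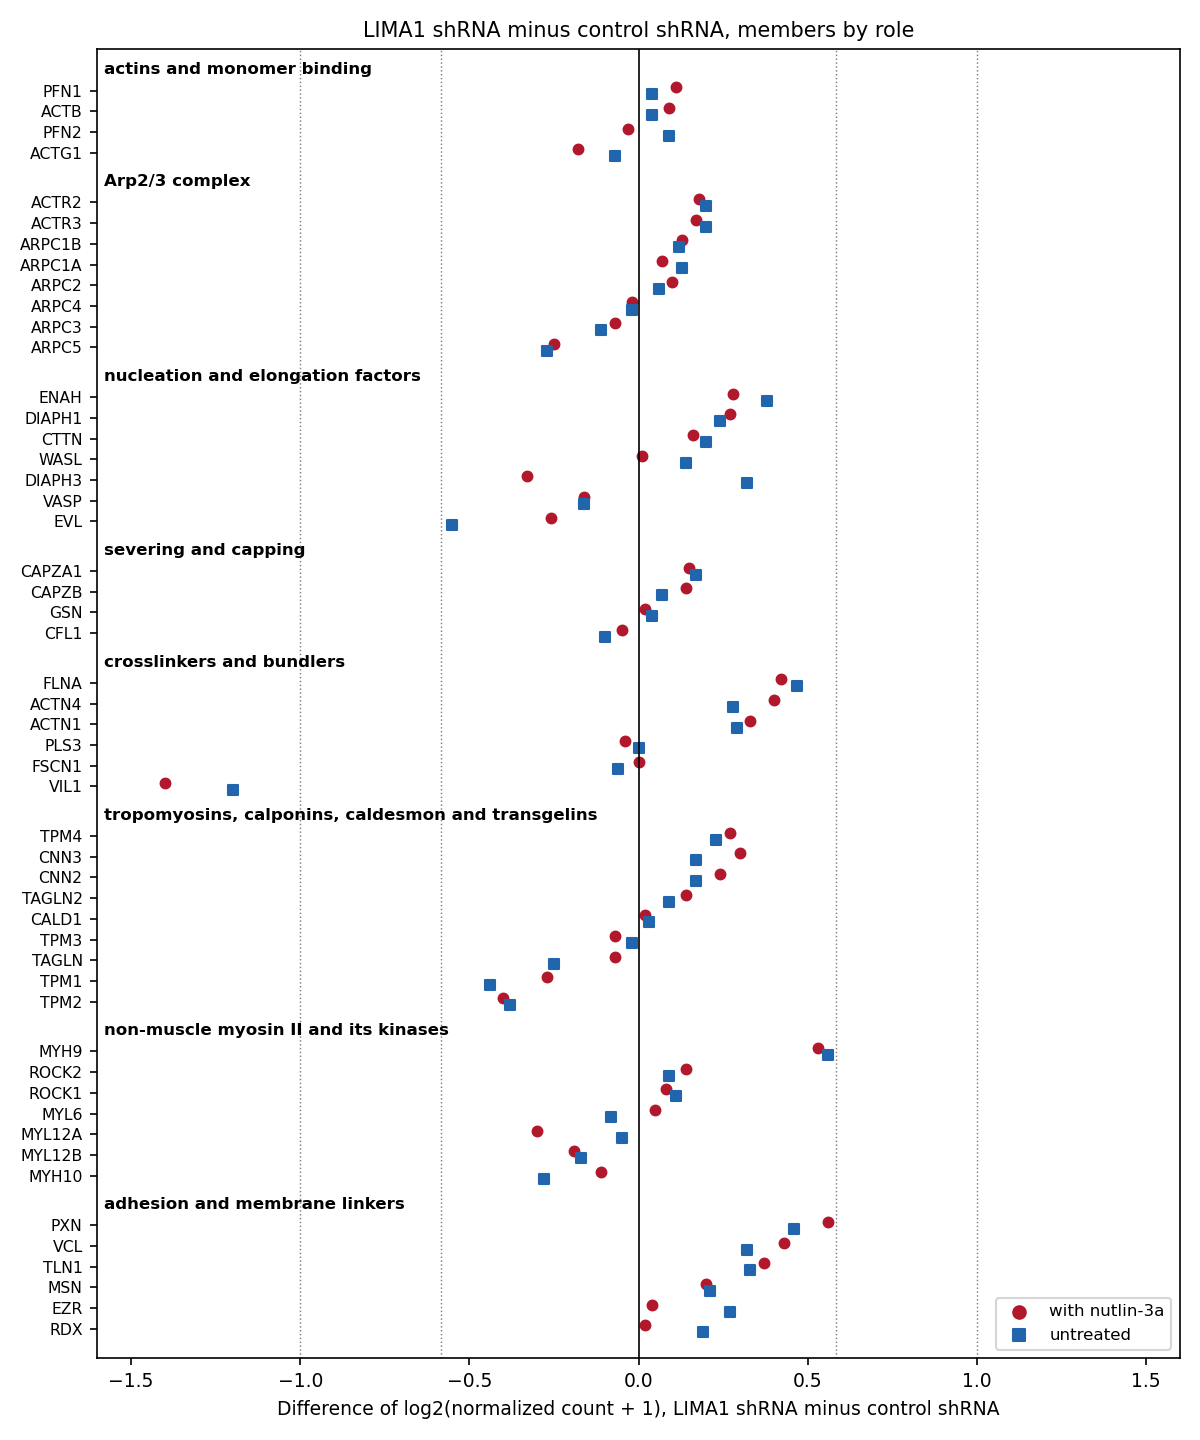
Differences of log2(normalized count + 1), LIMA1 shRNA minus control shRNA, for the 51 measured members grouped by role; red circles are nutlin-3a libraries and blue squares untreated ones, 1 library per group, and dotted lines mark differences of 0.58 and 1 in size. VIL1 lies at -1.40 and -1.20, MYH9 at 0.53 and 0.56, and all 6 adhesion and membrane linkers lie right of 0.

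The LIMA1 shRNA differences, too, were much the same in separate libraries. With nutlin-3a and untreated, 47 of 51 members (92.2%) had the same sign, against 72.2% of all measured genes. Pearson's r across the 51 genes was 0.89 and Spearman's rank correlation 0.84, and without DIAPH3 they were 0.94 and 0.92.

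These differences went with transcript length. Spearman's rank correlation between a member's difference and the length of its longest coding transcript was 0.31 with nutlin-3a and 0.43 untreated over 51 members, against 0.17 and 0.15 over 11484 genes with a length. The 26 members of 3272 bases or more had medians of 0.15 with nutlin-3a and 0.20 untreated, and the 25 shorter ones had 0.04 and 0.04. Of the 26 longer members, 19 lay above 0 with nutlin-3a and 21 untreated, and of the 25 shorter ones 13 and 13. Removing a length and GC trend, an alternative chosen after seeing the data, left the members' medians at 0.07 with nutlin-3a and 0.09 untreated. It changed the sign of 6 members with nutlin-3a and 4 untreated, none above 0.08 and 0.06 in size. The part of length alone in the values was not tested.

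**Figure D5:**
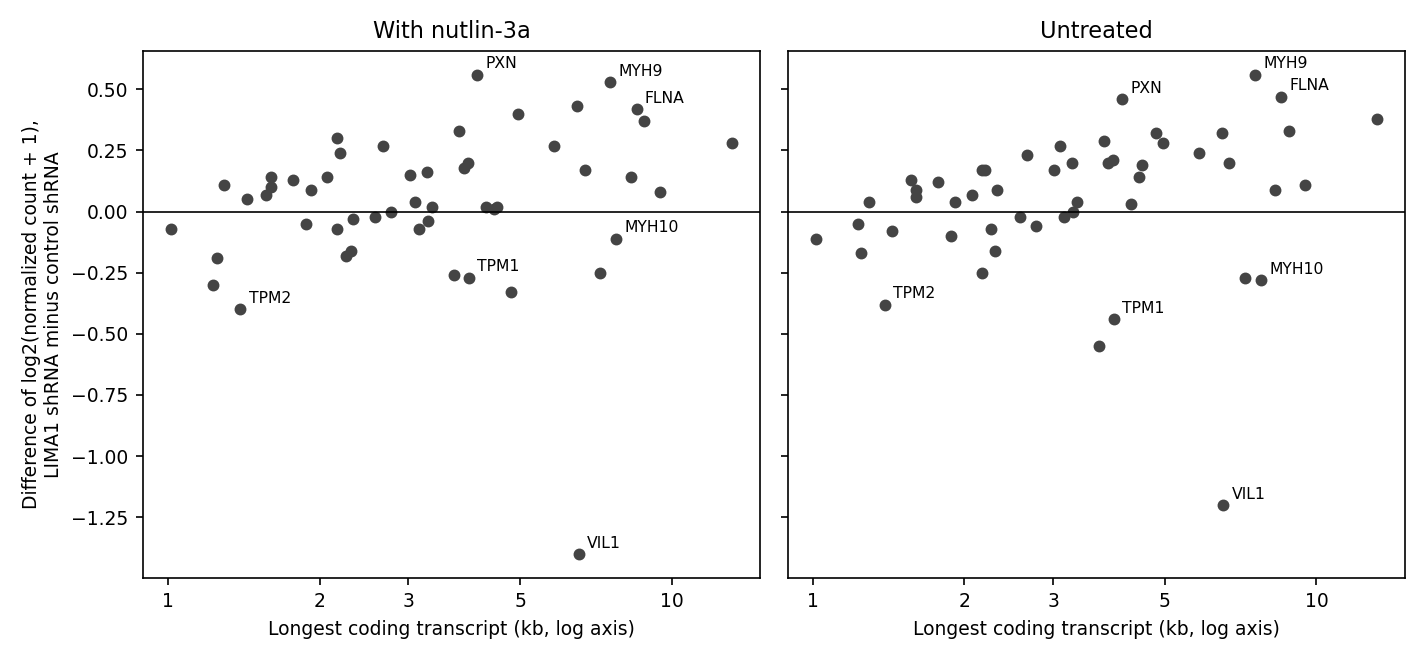
Differences of log2(normalized count + 1), LIMA1 shRNA minus control shRNA, against the length of the longest coding transcript (kb, log axis) with nutlin-3a and untreated; each point is 1 of the 51 measured members. Of the 26 longer members, 19 lie above 0 with nutlin-3a and 21 untreated; VIL1, TPM1 and MYH10 are labelled among those below it.

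The change in response compares the nutlin-3a difference in LIMA1 shRNA cells with that in control shRNA cells. No member passed a size of 1 (0 higher and 0 lower, where 1.27% and 0.816% of all genes were). At 0.58, 0 were higher (all genes 3.74%) and 1 was lower (all genes 2.94%), DIAPH3 at -0.65, whose counting interval of -1.51 to 0.22 holds 0. The median size of the change was 0.05 over members and 0.14 over all genes. Among members whose counting interval left out 0, those farthest below it were MYL12A at -0.25 (-0.36 to -0.14), EZR at -0.22 (-0.30 to -0.15) and RDX at -0.16 (-0.24 to -0.08). Farthest above it were TPM1 at 0.17 (0.07 to 0.27), MYH10 at 0.17 (0.01 to 0.33) and MYL6 at 0.13 (0.08 to 0.18). Without replicate libraries, the spread that such sizes should be read against is not known.

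Wider lists of the pathway were read in the same way. Of 30 listed genes of serum response factor and MRTF, 21 were measured. With nutlin-3a, 3 were higher and 2 lower by at least 1 in LIMA1 shRNA cells (all genes 7.29% and 6.08%), and 1 higher and 0 lower in control shRNA cells (all genes 5.54% and 5.64%). ACTA2, smooth-muscle actin, had 1915 normalized counts with nutlin-3a and 82.1 untreated in LIMA1 shRNA cells, and 2271 with nutlin-3a and 118 untreated in control shRNA cells. Exons of ACTA2 overlap those of FAS, a p53 target on the opposite strand, which had 2573 and 2103 normalized counts in the nutlin-3a libraries and 164 and 160 in the untreated ones of the LIMA1 shRNA and control shRNA lines. ACTA2 values are not whole fragments, and the part of FAS reads in them was not tested. FOS, an immediate early gene, was lower at -1.02 and -0.95. Against control shRNA, the list had 1 gene higher and 1 lower by at least 1 with nutlin-3a (all genes 1.26% and 1.94%), and 0 in either direction untreated (all genes 1.04% and 2.05%). CTGF, a secreted matrix factor, was lower in LIMA1 shRNA cells than in control shRNA cells, at -1.73 with nutlin-3a and -0.77 untreated. The integrin ITGA5 was higher there at 0.75 and 0.73.

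Of 103 other listed actin regulators, 91 were measured. With nutlin-3a, 7 were higher and 2 lower by at least 1 in LIMA1 shRNA cells (all genes 7.29% and 6.08%), and 6 higher and 3 lower in control shRNA cells (all genes 5.54% and 5.64%). The higher counts are near the background, so they say nothing particular about this list. CYFIP2, a subunit of the WAVE complex that drives Arp2/3, had 5915 normalized counts with nutlin-3a and 595 untreated in LIMA1 shRNA cells, and 5673 with nutlin-3a and 696 untreated in control shRNA cells. EPS8L2, a capping and bundling relative of EPS8, was higher at 1.94 and 1.82, the pointed-end capper TMOD2 at 1.34 and 1.37, and the motor MYO6 at 1.32 and 1.23. Against control shRNA, 2 were higher and 1 lower by at least 1 with nutlin-3a (all genes 1.26% and 1.94%), and 1 higher and 0 lower untreated (all genes 1.04% and 2.05%), again near the background. DAAM2, another formin, had 324 normalized counts in LIMA1 shRNA cells and 94.3 in control shRNA cells with nutlin-3a, and 520 in LIMA1 shRNA cells and 202 in control shRNA cells untreated. TNS1, a tensin of adhesions, was lower at -1.19 with nutlin-3a and -0.87 untreated, and TMOD3, a relative of TMOD2, at -0.89 and -0.67.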

How the data were processed

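The deposited tables hold, for each gene model, a normalized fragment count, taken here as a signal: per the values themselves, fragment counts that the authors divided by 1 size factor per library, not by length. Per the submitters' processing notes, hg19, bcl2fastq 1.8.3, Bowtie2 2.0.12 and Cuffnorm 2.2.1 were used, with no role or order stated. Neither the annotation nor the strand setting is given in the sources used here. Whole fragments (to within 0.1) made up 86.2% to 87.1% of the values per library. That was too few to recover counts for every gene, and with 1 library per group no count test was run. The titles give each sample's group; they say si for what the protocols call shRNA, and the fourth library's header names EPLIN. Differences were taken on log2(value + 1), a scale that understates changes of low genes. Exact (Clopper-Pearson) 95% intervals of ratios and shares used values divided by the library's step and rounded to whole counts. Where a value was not whole, its interval is therefore approximate. The interval of a difference between log2 responses is a normal approximation to counting error. Genes named from the wider lists were taken from the largest differences among those averaging 150 normalized counts or more. Not every gene with such a difference was named. The members and lists were chosen with earlier results of these data known. Lengths came from GENCODE 29 by symbol, matched for 11484 (90.1%) of the measured genes and all 51 members, and overlaps and pseudogenes from the same annotation. Of the 51 measured members, 6 (ARPC1B, ARPC4, ACTN4, TPM1, VCL and PXN) had values that were not whole fragments, as did 17.9% of all measured genes. Values of 30000 fragments or more were not checked, which left ACTB, ACTG1 and FLNA unchecked in every library. The scripts (scipy 1.17.1, pandas 2.3.3, numpy 2.4.6, Python 3.11.15) were tested on simulated data. The alternatives were other pseudocounts, scalings and filters, and leaving out genes with values that were not whole. Results of 1 wider list and of 1 gene of another are not reported here.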

Additional observations from a re-analysis of the deposited data

Results flagged for a closer look

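MYL12A, a regulatory light chain of myosin II, differed in direction between the lines, with a nutlin-3a difference of -0.1 in LIMA1 shRNA cells and 0.15 in control shRNA cells on the log2 scale. The values were 2529 normalized counts with nutlin-3a and 2718 untreated in LIMA1 shRNA cells, and 3117 with nutlin-3a and 2818 untreated in control shRNA cells. With 1 library per group the difference was not tested, and under upper-quartile scaling both values lay above 0 (0.04 and 0.27).

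MYL6, an essential light chain, was on opposite sides of 0 in the LIMA1 shRNA comparisons, at 0.05 with nutlin-3a and -0.08 untreated. It had 15920 normalized counts in LIMA1 shRNA cells and 15359 in control shRNA cells with nutlin-3a, and 13272 in LIMA1 shRNA cells and 13996 in control shRNA cells untreated. This difference was not tested either, and under upper-quartile scaling the values were 0.01 and -0.15. These 2 genes were the members whose counting intervals lay on opposite sides of no change in paired comparisons.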

How the results depend on the processing

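No paired analysis was possible because each group has 1 library and the replicate number only names it. Under upper-quartile scaling with nutlin-3a, LIMA1 shRNA cells had 1 member higher by at least 1, 5 higher and 3 lower by at least 0.58, and a median of 0.06; control shRNA cells had 1 higher by at least 1, 3 higher by at least 0.58 and a median of 0.04. As deposited the medians were -0.09 and -0.08, so the scaling turns their sign. In untreated cells, LIMA1 shRNA against control shRNA then had 2 members lower by at least 0.58 and a median of 0.02, and under equal-total scaling also 2 lower. Without a filter on low values, which lets in MYL9, FLNC and LCP1, the nutlin-3a comparison had 1 higher by at least 1 in either line, 4 higher by at least 0.58 in LIMA1 shRNA cells and 3 in control shRNA cells. The LIMA1 shRNA comparisons then had 2 lower by at least 1 and 3 lower by at least 0.58, both with nutlin-3a and untreated. A pseudocount of 30 left 0 members with a response lower by at least 0.58. The remaining alternatives (a pseudocount of 0.1, median-of-ratios scaling, a mean of at least 150, and leaving out genes with values that were not whole) moved none of the members' counts or medians past these limits. Alternatives chosen after seeing the data were to remove a length and GC trend, which gave 2 members higher by at least 0.58 with nutlin-3a in either line, and to leave out DIAPH3, which left 0 members lower by at least 1 with nutlin-3a in either line and 0 with a response lower by 0.58. No result reversed its direction past a size of 0.58. Beyond what each alternative removes or rescales, the cause of these shifts was not tested. With no replicates, a counting interval bounds depth alone: it is wide for DIAPH3, EVL, TAGLN and VIL1 and narrow for the actins.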
